A study of Mus musculus with 24 samples.

Results

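A set of 9 genes of TGF-beta signalling, matrix turnover and fibrosis was described: the cytokine Tgfb1, its receptor Tgfbr2, the matricellular gene Ctgf, the matrix gene Fn1, the protease inhibitors Timp1, Timp2 and Timp3, the protease Mmp2 and the intermediate filament gene Vim. They were taken by gene symbol from the 48526 genes of the deposited count table, and each symbol matched 1 gene. Of these 9, 8 passed the filter on low counts and were among the 15808 genes tested; Timp1 did not pass.

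The study measured total RNA of renal cortex by RNA-seq in 24 libraries from C57BL/6 mice, in 4 groups of 6 libraries. Diabetes was induced from 6 weeks of age with 5 intraperitoneal doses of streptozotocin (STZ, a toxin of the insulin-producing beta cells) at 55 mg/kg, 1 on each day, and non-diabetic mice received sodium citrate. Mice of each kind then drank water alone, the vehicle, or water with PMX-53, a cyclic peptide that blocks the complement receptor C5aR1, at 2 mg/kg, and were followed for 24 weeks. The groups are called here non-diabetic vehicle, non-diabetic PMX-53, diabetic vehicle and diabetic PMX-53. By the labels, all 24 libraries share strain and tissue. STZ acts on the beta cells and can also act on other cells. The labels do not say whether each library is 1 mouse, so the p-values measure the spread between these libraries, which may in part be technical.

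Transforming growth factor beta is secreted in a latent form, bound to latency proteins and released by integrins. The active ligand brings its receptors together, Smad proteins then enter the nucleus, and target genes that include connective tissue growth factor, fibronectin and collagens are switched on. In the kidney this pathway is best known for scarring of the glomerulus and interstitium, where matrix is laid down by fibroblast-like cells and removed by matrix metalloproteinases, which the TIMP proteins hold in check.

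Library totals ran from 10964992 to 22000895 counts, with 20.1% to 31.9% of counts in mitochondrially encoded genes. The diabetic vehicle libraries stand apart from the other 18 in a trait that no label names. Nnt, which encodes the mitochondrial nicotinamide nucleotide transhydrogenase and is partly deleted in some C57BL/6 substrains, was at 241 to 272 CPM (the count scaled to library size with TMM factors) in those 6 libraries and at 101 to 120 in the other 18. Diabetes without PMX-53 and whatever separates these 6 libraries cannot be told apart. Values from comparisons that do not use these libraries are therefore given below, beside the members' diabetes results and the list genes named for diabetes. The comparison of PMX-53 in diabetic mice and the interaction also use these 6 libraries. In both, PMX-53 and whatever separates the 6 libraries cannot be told apart either. The mitochondrial share was 25.9% to 31.9% in the same group and 20.1% to 29.0% in the other 18 libraries; its part in the results was not tested. Defining markers of cortex were present, since the 9 proximal tubule markers summed to 10525 to 17796 CPM over the 24 libraries. In bulk tissue fewer cells of a type and less RNA per cell cannot be told apart.

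Among the 9 genes the change was unequal. Diabetic vehicle cortex held less Timp3 and Tgfb1 and more Mmp2 than non-diabetic vehicle cortex, and diabetic PMX-53 cortex held more Timp3 than diabetic vehicle cortex. Fn1 was higher in diabetic than in non-diabetic mice where both drank PMX-53. Tgfbr2, Ctgf, Timp2 and Vim passed the test in none of the 6 comparisons, and Timp1 was almost silent.

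The stretches just upstream of Tgfb1 and Timp3, the members lower in diabetic vehicle cortex, are shown because these are the 2 members whose level fell. They come from the RefSeq promoter table of build GRCm38.p6, which held 6 of the 9 members, and cover 210 bases that end 41 bases before the RefSeq start. The windows are chr7:25686752-25686961 for Tgfb1 and chr10:86300162-86300371 for Timp3, both on the plus strand. Capitals mark GGGCGG on the minus strand, the core of the GC box that Sp1-type factors bind.

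Tgfb1: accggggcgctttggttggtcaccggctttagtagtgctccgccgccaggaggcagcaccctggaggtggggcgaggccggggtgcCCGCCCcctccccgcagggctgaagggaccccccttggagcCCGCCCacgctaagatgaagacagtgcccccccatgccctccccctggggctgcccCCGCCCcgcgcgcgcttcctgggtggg
Timp3: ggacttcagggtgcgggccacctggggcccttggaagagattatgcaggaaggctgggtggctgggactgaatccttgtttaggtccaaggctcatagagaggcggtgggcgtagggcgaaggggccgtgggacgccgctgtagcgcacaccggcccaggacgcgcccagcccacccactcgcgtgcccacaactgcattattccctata

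Letter patterns, 5 in all, were searched on both strands of these windows, and of 32851 promoter windows of the same length. The Smad box was searched as CAGAC, which 37.2% of all windows held, and the Sp1 GC box as GGGCGG, which 26.7% held. The AP-1 site was searched as TGANTCA (5.84% of windows), the TATA box as TATAAA (9.56%) and the CCAAT box by those letters (29.9%). No 2 matches overlapped in the windows shown. The Tgfb1 window held 3 matches to the GC box, starting 164, 123 and 67 bases before the start, and no match to the other patterns. The Timp3 window held a match to none of the 5. The windows end before the RefSeq start, so the bases next to that start were not searched. The lack of a TATA match therefore does not show whether a TATA box lies next to the RefSeq start. For Timp3 the GENCODE gene starts further upstream, at 86300372, directly after the window. The Timp3 window ends in the letters tata, and a match that runs past this end could not be found. The Tgfb1 window is 74.3% G and C and the Timp3 window 63.8%. A match is a run of letters and not a measured site.

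Levels between genes are compared per kilobase of exon, as CPM per kb over all 24 libraries. Timp3 stood first at 189 CPM per kb, the 100th highest of the 15808 tested genes, and at 1543 CPM it ranked 32nd before length was taken into account. Ctgf followed at 19.1, Tgfbr2 at 8.89, Timp2 at 6.81, Fn1 at 4.53, Vim at 3.28, Tgfb1 at 2.08, Mmp2 at 0.929 and Timp1 at 0.280 CPM per kb. Among the 3 inhibitors of the set, the level per kb thus ran from the set's highest to its lowest.

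**Figure D1:**
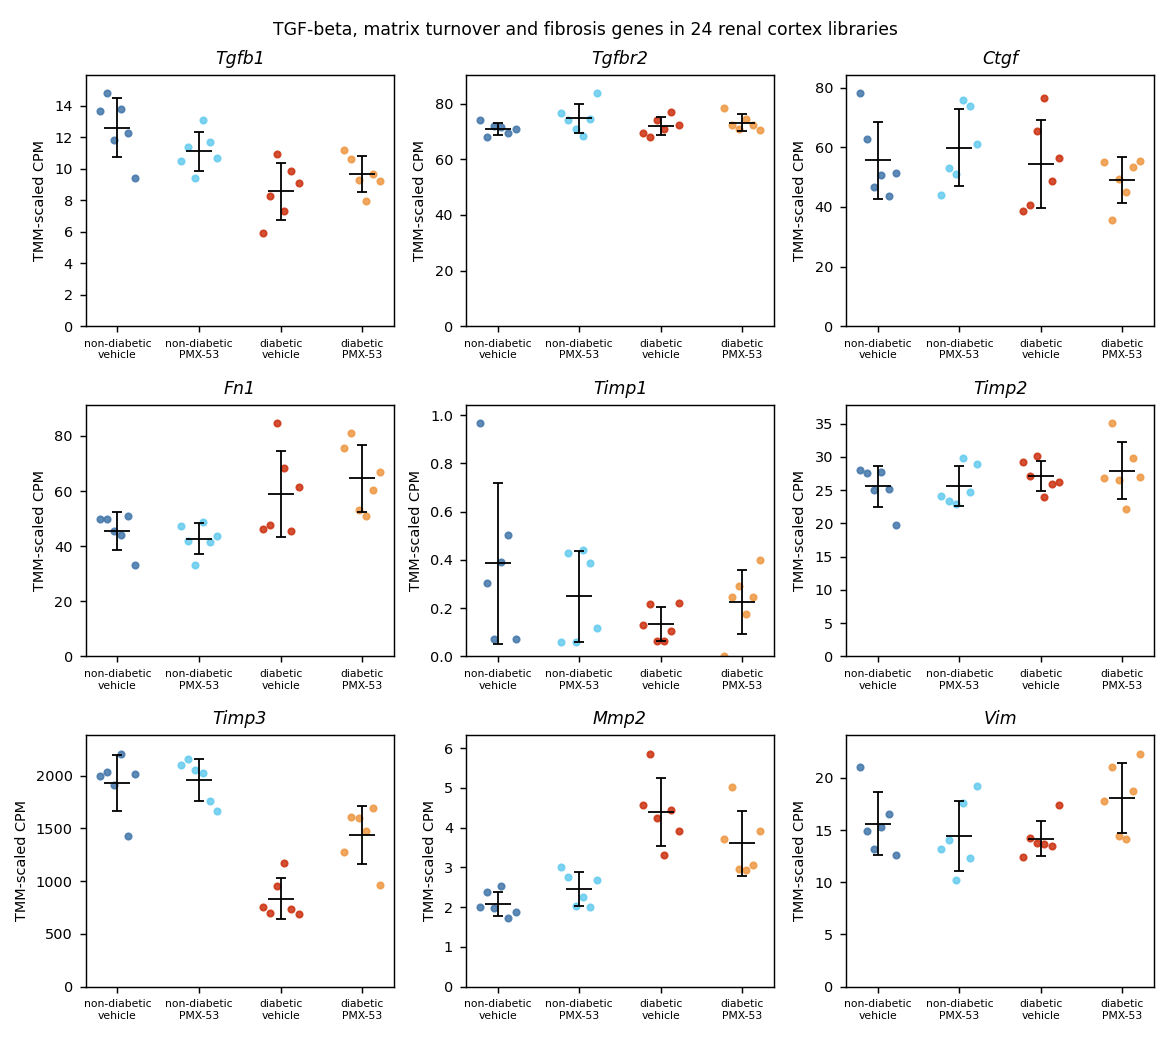
Level of each of the 9 genes in the 24 libraries, in TMM-scaled CPM on a linear axis from 0; points are libraries, and black bars are the mean with 1 SD of 6 libraries. Timp3 is lowest and Mmp2 highest in the diabetic vehicle group, while the 4 groups lie over each other for Tgfbr2 and Ctgf.

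Tgfb1, the ligand, lies on chromosome 7 (GRCm38, 25687002 to 25705077, plus strand). Its lowest, median and highest values were 9.43, 12.9 and 14.8 CPM in non-diabetic vehicle, 9.43, 11.04 and 13.1 in non-diabetic PMX-53, 5.93, 8.69 and 10.97 in diabetic vehicle, and 7.93, 9.48 and 11.2 in diabetic PMX-53 cortex. Levels were lowest in the 2 diabetic groups, and the ranges of all 4 groups overlapped. Group means were 12.6 ± 1.90, 11.1 ± 1.24, 8.58 ± 1.81 and 9.66 ± 1.15 CPM (SD, n = 6) in that order. On the log2 scale Tgfb1 fell by 0.56 ± 0.12 (SE) in diabetic against non-diabetic vehicle cortex (adjusted p = 5.44e-04, edgeR quasi-likelihood test, Benjamini-Hochberg over all genes tested), and all 6 diabetic libraries lay below the non-diabetic mean. The values were 0.16 ± 0.12 in diabetic mice given PMX-53 against vehicle (adjusted p = 0.339) and -0.19 ± 0.12 for PMX-53 in non-diabetic mice (adjusted p = 0.795).

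Tgfbr2 encodes the receptor subunit that binds the ligand, and lies on chromosome 9 (116084293 to 116175360, minus strand). The lowest, median and highest values were 68.1, 71.2 and 74.2 CPM in non-diabetic vehicle, 68.3, 74.3 and 83.8 in non-diabetic PMX-53, 68.1, 71.7 and 77.0 in diabetic vehicle, and 70.6, 72.3 and 78.6 in diabetic PMX-53 cortex. The groups covered almost the same range, with coefficients of variation of 2.97% to 7.11%. The log2 difference between diabetic and non-diabetic vehicle cortex was 0.02 ± 0.05 (SE; adjusted p = 0.751, edgeR), with a 95% interval from -0.07 to 0.11. Under PMX-53 the diabetes value was -0.03 ± 0.05 (adjusted p = 0.749). On vehicle the interval was the narrowest of the 8 tested genes in that comparison.

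Ctgf, a secreted CCN protein and a textbook TGF-beta target, lies on chromosome 10 (24595442 to 24598683, plus strand). From lowest over median to highest, its values were 43.6, 51.1 and 78.2 CPM in non-diabetic vehicle, 44.0, 57.2 and 75.9 in non-diabetic PMX-53, 38.5, 52.5 and 76.5 in diabetic vehicle, and 35.5, 51.5 and 55.4 in diabetic PMX-53 cortex. Libraries of 1 group differed by more than the group means did. The log2 difference was -0.04 ± 0.18 (SE; adjusted p = 0.890, edgeR) for diabetes on vehicle, with a 95% interval from -0.39 to 0.31, and -0.29 ± 0.18 (adjusted p = 0.346) for diabetes under PMX-53. The annotated transcript Gm15270 overlaps 665 exonic bases of Ctgf on the opposite strand, with 1 to 18 counts in a library.

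Fn1 encodes fibronectin, the glycoprotein on which much of the interstitial matrix is assembled, and lies on chromosome 1 (71585520 to 71653200, minus strand). Over 6 libraries the lowest, median and highest values were 33.0, 47.7 and 50.8 CPM in non-diabetic vehicle, 33.2, 42.8 and 48.8 in non-diabetic PMX-53, 45.4, 54.6 and 84.6 in diabetic vehicle, and 50.9, 63.6 and 81.2 in diabetic PMX-53 cortex. Every diabetic PMX-53 library lay above every non-diabetic library, while the diabetic vehicle libraries overlapped with both non-diabetic groups. The gap to non-diabetic vehicle was narrow: 50.89 CPM in diabetic PMX-53 replicate 4 against 50.83 in non-diabetic vehicle replicate 5. Their 95% exact Poisson intervals, 47.6 to 54.4 and 47.1 to 54.7 CPM, overlapped. Fn1 rose by 0.60 ± 0.15 (SE) on the log2 scale with diabetes under PMX-53 (adjusted p = 0.0150, edgeR), and the groups did not overlap. For diabetes on vehicle the value was 0.37 ± 0.15 (adjusted p = 0.0558), with 5 of 6 diabetic libraries above the non-diabetic mean. Its adjusted p ran from 0.0290 to 0.158 over the alternatives. It was 0.0347 without diabetic vehicle replicate 1, 0.0346 without replicate 2, 0.0290 without replicate 5, and 0.0389 with DESeq2. The interaction of diabetes and PMX-53 for Fn1 was 0.22 ± 0.22 (adjusted p = 0.575), so the diabetes values on vehicle and under PMX-53 were not shown to differ.

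Timp1, an inhibitor known to rise in injured kidney, lies on chromosome X (20870166 to 20874735, plus strand), wholly inside Syn1 on the opposite strand, whose exons it does not share. The 24 libraries held 96 counts of it in all, from 0 to 16 in a library. Means were 0.385 ± 0.333 CPM in non-diabetic vehicle, 0.248 ± 0.188 in non-diabetic PMX-53, 0.134 ± 0.0706 in diabetic vehicle and 0.226 ± 0.133 in diabetic PMX-53 cortex (SD, n = 6). The highest library, non-diabetic vehicle replicate 1, had 16 counts or 0.966 CPM, with a 95% exact Poisson interval of 0.552 to 1.57 that covers counting error only. The 1 library at 0 counts, diabetic PMX-53 replicate 1, allows up to 0.228 CPM by the same kind of interval. The level of 3 counts, another upper limit for a count of 0, is 0.186 CPM there. Fitted without a filter on low counts, diabetes on vehicle gave -1.46 ± 0.56 (log2 ± SE, edgeR, adjusted p = 0.0586), and DESeq2 gave -1.51 ± 0.66 (adjusted p = 0.0692). The difference did not pass the threshold in either fit, and both rest on 0 to 16 counts in a library.

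Timp2, which inhibits matrix metalloproteinases and also takes part in the activation of Mmp2 at the cell surface, lies on chromosome 11 (118301069 to 118355740, minus strand). Its lowest, median and highest values were 19.7, 26.4 and 28.1 CPM in non-diabetic vehicle, 22.8, 24.4 and 29.8 in non-diabetic PMX-53, 24.0, 26.7 and 30.2 in diabetic vehicle, and 22.2, 26.9 and 35.0 in diabetic PMX-53 cortex. The 4 ranges overlapped, and medians lay between 24.4 and 26.9 CPM. The log2 difference was 0.08 ± 0.09 (SE; adjusted p = 0.508, edgeR) for diabetes on vehicle, with a 95% interval from -0.10 to 0.27, and 0.12 ± 0.09 (adjusted p = 0.481) for diabetes under PMX-53.

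Timp3, which is bound to the extracellular matrix and inhibits metalloproteinases of several families, lies on chromosome 10 (86300372 to 86349506, plus strand). The lowest, median and highest values were 1429, 2010 and 2211 CPM in non-diabetic vehicle, 1664, 2043 and 2156 in non-diabetic PMX-53, 690.4, 745 and 1172 in diabetic vehicle, and 963, 1539 and 1696 in diabetic PMX-53 cortex. Each diabetic vehicle library lay below every non-diabetic library of either treatment. The diabetic PMX-53 libraries lay between, overlapping with the groups on both sides. Means were 1935 ± 266, 1963 ± 200.2, 835 ± 191 and 1438 ± 274 CPM (SD, n = 6). Timp3 fell by 1.21 ± 0.14 (SE) on the log2 scale with diabetes on vehicle (adjusted p = 1.85e-07, edgeR) and rose by 0.78 ± 0.14 where diabetic mice drank PMX-53 (adjusted p = 1.33e-04), where all 6 treated libraries lay above the untreated mean. In non-diabetic mice the PMX-53 value was 0.02 ± 0.13 (adjusted p = 0.994), and the test of the difference between the 2 PMX-53 effects gave 0.76 ± 0.19 (adjusted p = 0.0130). Timp3 was the only tested gene of the 8 with an interaction past the threshold. This interaction and the PMX-53 value in diabetic mice both use the diabetic vehicle libraries, with the limit given above.

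Within the diabetic groups Timp3 varied between libraries. The 6 diabetic vehicle libraries had 758, 702, 954, 1172, 732 and 690.4 CPM from replicate 1 to 6, and the diabetic PMX-53 libraries 1281, 1609, 1600.3, 1478, 1696 and 963 CPM. The list of 9 markers of parietal epithelium and injured tubule summed to 703 CPM in diabetic vehicle replicate 4. That library had the most Timp3 of its group, and the sum was 1345 to 2749 in the other 5. In the diabetic PMX-53 group the least Timp3 was in replicate 6, which had the highest sum of that list, 957 CPM, against 684 to 903 in the other 5, and the lowest sum of the 9 proximal tubule markers, 11957 against 14304 to 15726. The part of these cell states in the Timp3 values was not tested. Without diabetic vehicle replicate 4 the diabetes value was -1.34 ± 0.13 (adjusted p = 5.49e-09) and the PMX-53 value 0.91 ± 0.12 (adjusted p = 5.42e-06, both edgeR). Over all alternatives the diabetes value ran from -1.34 to -1.16 and the PMX-53 value from 0.73 to 0.91.

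Timp3 lies wholly inside Syn3, a gene of synaptic vesicles, on the opposite strand, with which it shares 1733 exonic bases. Syn3 was at 8.0 to 17.9 CPM in the 24 libraries, against a lowest Timp3 value of 690.4 CPM, and whether the counting used strand is not given in the sources used here.

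Mmp2, the gelatinase that cuts denatured collagen and basement membrane collagen, lies on chromosome 8 (92827291 to 92853420, plus strand). From lowest over median to highest, its values were 1.73, 1.99 and 2.53 CPM in non-diabetic vehicle, 2.00, 2.47 and 3.01 in non-diabetic PMX-53, 3.31, 4.34 and 5.86 in diabetic vehicle, and 2.94, 3.39 and 5.03 in diabetic PMX-53 cortex. Each diabetic vehicle library lay above every non-diabetic library, and diabetic PMX-53 libraries overlapped with the non-diabetic PMX-53 group only at its upper end. Means were 2.08 ± 0.305, 2.46 ± 0.42, 4.39 ± 0.850 and 3.60 ± 0.810 CPM (SD, n = 6). Mmp2 rose by 1.07 ± 0.16 (SE) on the log2 scale with diabetes on vehicle (adjusted p = 4.71e-06, edgeR). Treated against untreated diabetic mice gave -0.30 ± 0.15 (adjusted p = 0.126), with 5 of 6 treated libraries below the untreated mean. That adjusted p ran from 0.0373 to 0.408 over the alternatives: it was 0.0373 without diabetic PMX-53 replicate 2 and 0.0448 with limma voom. These values rest on 24 to 109 counts in a library. The library of 24 counts, non-diabetic vehicle replicate 5, had 1.73 CPM with a 95% exact Poisson interval of 1.11 to 2.57, and that of 109 counts, diabetic vehicle replicate 2, had 5.86 with an interval of 4.81 to 7.07.

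**Figure D2:**
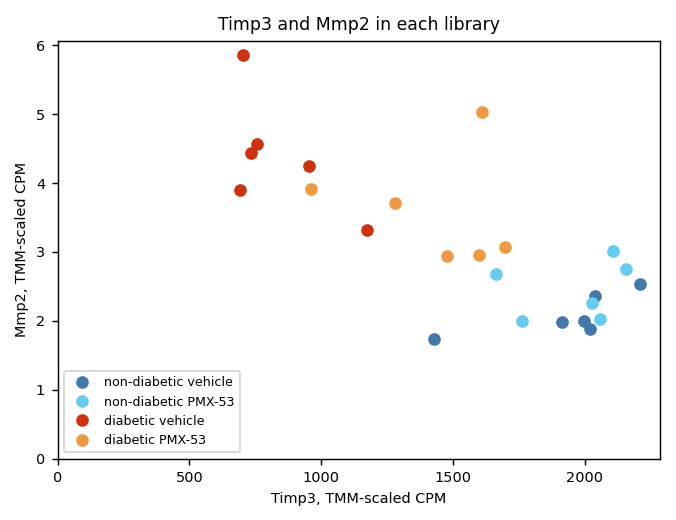
Timp3 (horizontal axis) against Mmp2 (vertical axis) in each of the 24 libraries, both in TMM-scaled CPM on linear axes from 0 and coloured by group. The 6 diabetic vehicle libraries lie at 690.4 to 1172 CPM of Timp3 and 3.31 to 5.86 CPM of Mmp2, apart from the 12 non-diabetic libraries.

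Vim encodes vimentin, the intermediate filament of mesenchymal cells, podocytes and dedifferentiated tubules, and lies on chromosome 2 (13573927 to 13582826, plus strand). Over 6 libraries the lowest, median and highest values were 12.6, 15.1 and 21.0 CPM in non-diabetic vehicle, 10.2, 13.6 and 19.2 in non-diabetic PMX-53, 12.4, 13.7 and 17.4 in diabetic vehicle, and 14.1, 18.2 and 22.3 in diabetic PMX-53 cortex. All 4 ranges overlapped. The log2 difference was -0.14 ± 0.15 (SE; adjusted p = 0.473, edgeR) for diabetes on vehicle and 0.34 ± 0.14 (adjusted p = 0.0840) for PMX-53 among diabetic mice, where 5 of 6 treated libraries lay above the untreated mean. Diabetes under PMX-53 gave 0.31 ± 0.14 (adjusted p = 0.180). For PMX-53 among diabetic mice the adjusted p ran from 0.0393 to 0.182 over the alternatives. It was 0.0468 without diabetic PMX-53 replicate 4, 0.0468 without diabetic vehicle replicate 6, 0.0424 in a fit of only the groups compared, and 0.0393 without TMM scaling.

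Set against all genes tested, the counts of members were these. For diabetes on vehicle, 1 of the 8 tested members rose and 2 fell, while 20.4% of all 15808 tested genes rose and 19.9% fell; the median log2 difference of the 8 was -0.01. For PMX-53 in diabetic mice, 1 of 8 rose and 0 fell, against 13.9% and 13.5% of all genes, with a median of 0.08. For PMX-53 in non-diabetic mice 0 of 8 members and 0% of all genes rose, and 0% fell, by edgeR at an adjusted p of 0.05. At an unadjusted p under 0.05 edgeR gave 0 of the 8 members and 1142 of all tested genes, limma voom called 0 genes after adjustment, and DESeq2 called 5, none of them a member. The interaction was positive for 1 of 8, Timp3, against 4.66% of all genes higher and 4.76% lower. For diabetes on vehicle and for PMX-53 in diabetic mice the share of members called, both directions together, was no larger than that of all genes. The comparisons share libraries and are not independent of each other. The share of all tested genes with group ranges that did not overlap was not counted.

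**Figure D3:**
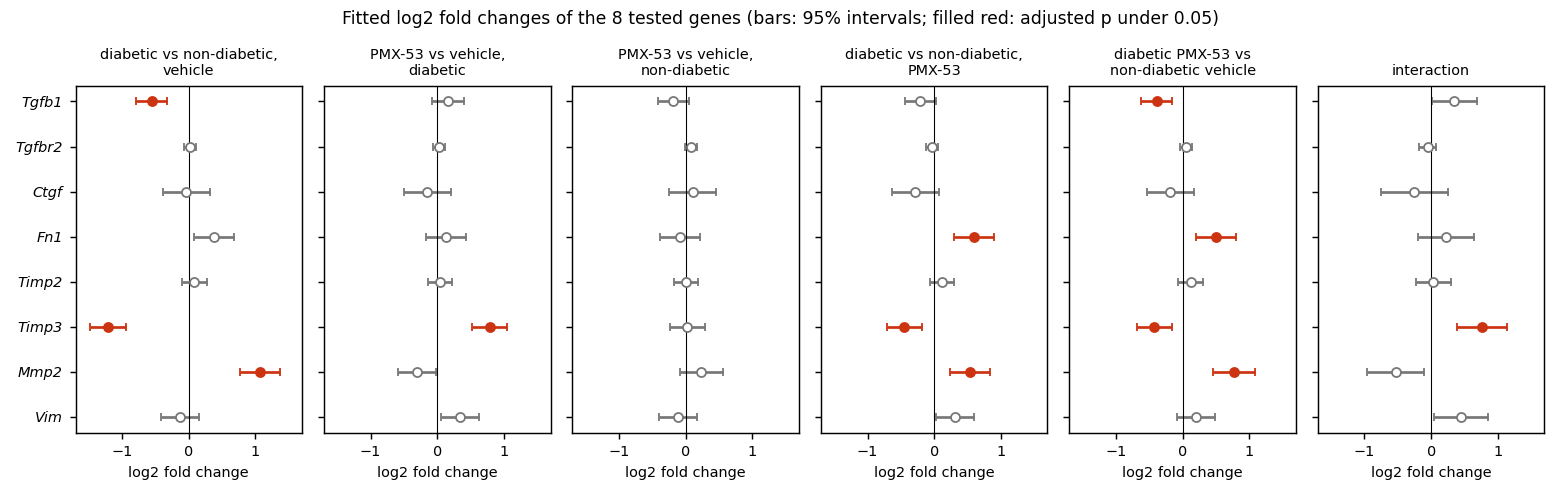
Fitted log2 fold changes of the 8 tested genes in the 6 comparisons, with bars of the 95% interval; filled red points passed an adjusted p of 0.05 (edgeR) and open grey points did not. Timp3 and Mmp2 lie on opposite sides of 0 in each of the 3 comparisons of diabetic with non-diabetic mice.

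A pair of comparisons of diabetic with non-diabetic mice use no diabetic vehicle library. Both rest on the same 6 diabetic PMX-53 libraries. The comparison with untreated non-diabetic mice differs in both diabetes and PMX-53, so its values cannot be assigned to either alone. Under PMX-53, Fn1 and Mmp2 rose and Timp3 fell, so 2 of 8 members were higher and 1 was lower, while 5.52% of all genes rose and 4.52% fell. Mmp2 rose by 0.54 ± 0.16 (log2 ± SE, adjusted p = 0.0263, edgeR) and Timp3 fell by 0.45 ± 0.13 (adjusted p = 0.0334), each in 6 of 6 libraries, with ranges that overlapped. Tgfb1 was at -0.21 ± 0.12 (adjusted p = 0.303). Against untreated non-diabetic mice, Mmp2 rose by 0.77 ± 0.16 (adjusted p = 0.00168) and Fn1 by 0.50 ± 0.15 (adjusted p = 0.0287), both without overlap. For Fn1 the gap was narrow, from 50.83 to 50.89 CPM. In the same comparison Tgfb1 fell by 0.39 ± 0.12 (adjusted p = 0.0267) and Timp3 by 0.43 ± 0.13 (adjusted p = 0.0315). That made 2 of 8 higher and 2 lower, with 7.98% of all genes higher and 6.97% lower.

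Several of these calls lay near the threshold. Under PMX-53 the Timp3 call was lost without non-diabetic PMX-53 replicate 1 (adjusted p = 0.0617), replicate 2 (0.0704), replicate 3 (0.0653) or replicate 4 (0.0639), and without diabetic PMX-53 replicate 1 (0.0716), replicate 4 (0.0535) or replicate 6 (0.0760), all by edgeR. It was also lost without the filter on low counts (0.0983), and its range over the alternatives was 0.00761 to 0.0983. In the fits that lost it the Timp3 value lay between -0.46 and -0.36 on the log2 scale, against -0.45 with all libraries. The Mmp2 call under PMX-53 was lost without non-diabetic PMX-53 replicate 3 (0.0673), replicate 4 (0.0598) or replicate 5 (0.0637) and without diabetic PMX-53 replicate 2 (0.0781) or replicate 6 (0.0533), within a range of 0.0117 to 0.0781, and its value in those fits was 0.42 to 0.51, against 0.54. The Fn1 call under PMX-53 held in all 9 other settings and all 12 fits that left out 1 library.

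Against untreated non-diabetic mice, the Tgfb1 call was lost without non-diabetic vehicle replicate 1 (adjusted p = 0.0545), replicate 2 (0.0711) or replicate 4 (0.0578) and without diabetic PMX-53 replicate 4 (0.0718), within a range of 0.0102 to 0.0718 by edgeR and the other tools. The Timp3 call was lost without non-diabetic vehicle replicate 1 (0.0547), replicate 2 (0.0577), replicate 4 (0.0717) or replicate 6 (0.0602), without diabetic PMX-53 replicate 1 (0.0700) or replicate 6 (0.0742), and without the filter (0.0990), within 0.00894 to 0.0990. The Fn1 call was lost without non-diabetic vehicle replicate 4 (0.0530) or replicate 6 (0.0713), without diabetic PMX-53 replicate 1 (0.0681), replicate 2 (0.0695) or replicate 6 (0.0510), and without the filter (0.0677), within 0.00795 to 0.0713. Where the calls were lost without a library or the filter, Tgfb1 was at -0.37 to -0.34, Timp3 at -0.43 to -0.34 and Fn1 at 0.43 to 0.51 on the log2 scale. The Mmp2 call held in all 9 settings and all 12 fits without 1 library. In each of these fits the direction stayed the same.

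Around the members, 113 tested genes of 8 pathway lists were examined. For diabetes on vehicle 17 of the 113 rose and 34 fell, beside 20.4% and 19.9% of all tested genes. For PMX-53 in diabetic mice 32 rose and 8 fell, beside 13.9% and 13.5%. Under PMX-53 7 rose with diabetes and 5 fell, beside 5.52% and 4.52%, and against untreated non-diabetic mice 9 rose and 13 fell, beside 7.98% and 6.97%. The interaction was positive for 18 and negative for 1, beside 4.66% and 4.76%. The counts of each list below stand beside these same shares. The members are among these genes. The lists were drawn up with earlier results of these data known, so their counts are descriptions, and the genes named from each list are the non-members with the smallest p.

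Of 14 genes for TGF-beta ligands, latency and activation, 3 rose and 5 fell with diabetes on vehicle (median log2 difference -0.04, against -0.0014 for all tested genes). Ltbp4, a latent TGF-beta binding protein, fell by 1.06 ± 0.10 (log2 ± SE, adjusted p = 1.44e-08, edgeR), from 17.4 ± 3.07 to 8.33 ± 1.11 CPM, and Itgb6, a subunit of an integrin that activates latent TGF-beta, fell by 0.68 ± 0.15, from 165 ± 7.60 to 103 ± 25.8 CPM (SD, n = 6). Ltbp3, another latency protein, rose from 21.2 ± 1.82 to 32.2 ± 4.90 CPM and the integrin subunit Itgav from 239 ± 27.9 to 348 ± 48.2 CPM. In diabetic mice given PMX-53, 4 rose and 2 fell: Ltbp4 rose by 0.80 ± 0.10, Itgb6 by 1.09 ± 0.15 and Ltbp1 by 0.79 ± 0.18, while Itgav fell by 0.45 ± 0.08. Itgb6 reached 218 ± 51.4 CPM there. With diabetes under PMX-53, 1 rose and 0 fell: Ltbp3 was higher by 0.37 ± 0.09 (adjusted p = 0.0105), while Ltbp4 was at -0.25 ± 0.10 (adjusted p = 0.105), Itgb6 at 0.14 ± 0.15 (0.598) and Itgav at 0.24 ± 0.08 (0.0630).

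Of 18 receptors, Smads and their regulators, 2 rose and 6 fell with diabetes on vehicle (median 0.02). Smad7, the inhibitory Smad, fell by 0.85 ± 0.09 (log2 ± SE, adjusted p = 3.33e-08, edgeR), from 33.8 ± 3.09 to 18.8 ± 2.92 CPM. The Smad repressor Skil fell by 0.67 ± 0.07, the ubiquitin ligase Smurf2 by 0.39 ± 0.04 and Pmepa1, which sequesters Smads, by 0.70 ± 0.10, each with all 6 diabetic libraries below all 6 non-diabetic ones. Smad3, a Smad that carries the signal, fell by 0.37 ± 0.07 (adjusted p = 1.80e-04), while Smurf1, a ubiquitin ligase that acts against the receptors as Smurf2 does, rose by 0.32 ± 0.06 (adjusted p = 2.11e-04) and the Smad corepressor Tgif1 rose by 0.29 ± 0.11 (adjusted p = 0.0322). Smurf1 and Tgif1 were chosen after their values were seen. Under treatment of diabetic mice 5 rose and 1 fell, among them Pmepa1 by 0.67 ± 0.10, Smad7 by 0.52 ± 0.09, Smad3 by 0.35 ± 0.07, and Skil by 0.27 ± 0.07. Without diabetic vehicle libraries Smad7, Skil and Smurf2 were still lower with diabetes: under PMX-53 Smad7 fell by 0.33 ± 0.09 (adjusted p = 0.0124), Skil by 0.30 ± 0.07 and Smurf2 by 0.25 ± 0.04. These 3 were the genes of the list called there, and 0 of them were called without TMM scaling. Pmepa1 was at -0.10 ± 0.10 (adjusted p = 0.583), Smad3 at 0.01 ± 0.07 (0.933), Smurf1 at 0.17 ± 0.06 (0.0799) and Tgif1 at 0.01 ± 0.11 (0.977). Against untreated non-diabetic mice, a comparison that also differs in PMX-53, 1 gene of the list was higher and 3 were lower. Smurf1 was the higher one, by 0.23 ± 0.06 (adjusted p = 0.0134, edgeR). Smad7, Skil and Smurf2 were the lower ones, by 0.32 ± 0.09, 0.40 ± 0.07 and 0.27 ± 0.04.

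Of 13 tested CCN family and other TGF-beta target genes, 0 rose and 10 fell with diabetes on vehicle (median -0.44), and Ctgf was 1 of the 3 that did not pass. Cyr61, a CCN gene like Ctgf, fell by 1.29 ± 0.27 (log2 ± SE, adjusted p = 5.81e-04, edgeR), from 25.8 ± 7.15 to 10.5 ± 3.91 CPM, and Klf10, an early response gene of TGF-beta, fell by 1.04 ± 0.23. The transcription factors Zeb2 and Zeb1 fell by 0.41 ± 0.08 and 0.29 ± 0.07. With the drug in diabetic mice, 6 rose and 0 fell (median 0.26): Col1a1 rose by 1.11 ± 0.20 and Col3a1 by 1.04 ± 0.22, genes of the fibrillar collagens, Col1a2 by 0.54 ± 0.13, and Tgfbi, a secreted matrix protein, by 0.71 ± 0.13. Col1a1 stood at 23.9 ± 3.59 CPM in non-diabetic vehicle, 14.1 ± 4.28 in diabetic vehicle and 30.6 ± 9.58 in diabetic PMX-53 cortex. With diabetes under PMX-53, 1 rose and 0 fell: Tgfbi was higher by 0.40 ± 0.13 (adjusted p = 0.0400), where on vehicle it fell by 0.39 ± 0.13. Cyr61 was at -0.59 ± 0.27 there (adjusted p = 0.176), Klf10 at -0.31 ± 0.23 (0.446), Zeb2 at -0.05 ± 0.08 (0.770) and Zeb1 at -0.18 ± 0.07 (0.123). Against untreated non-diabetic mice, a comparison that also differs in PMX-53, 3 genes of the list were lower in diabetic PMX-53 mice. Among them were Cyr61, by 1.11 ± 0.27 (adjusted p = 0.00693), and Klf10, by 0.78 ± 0.23. The count of 3 was 1 without TMM scaling, without the filter, and without non-diabetic vehicle replicate 5 or diabetic PMX-53 replicate 2 or 4. In non-diabetic mice the PMX-53 value was -0.52 ± 0.26 for Cyr61 (adjusted p = 0.701, edgeR) and -0.47 ± 0.23 for Klf10 (0.693).

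**Figure D4:**
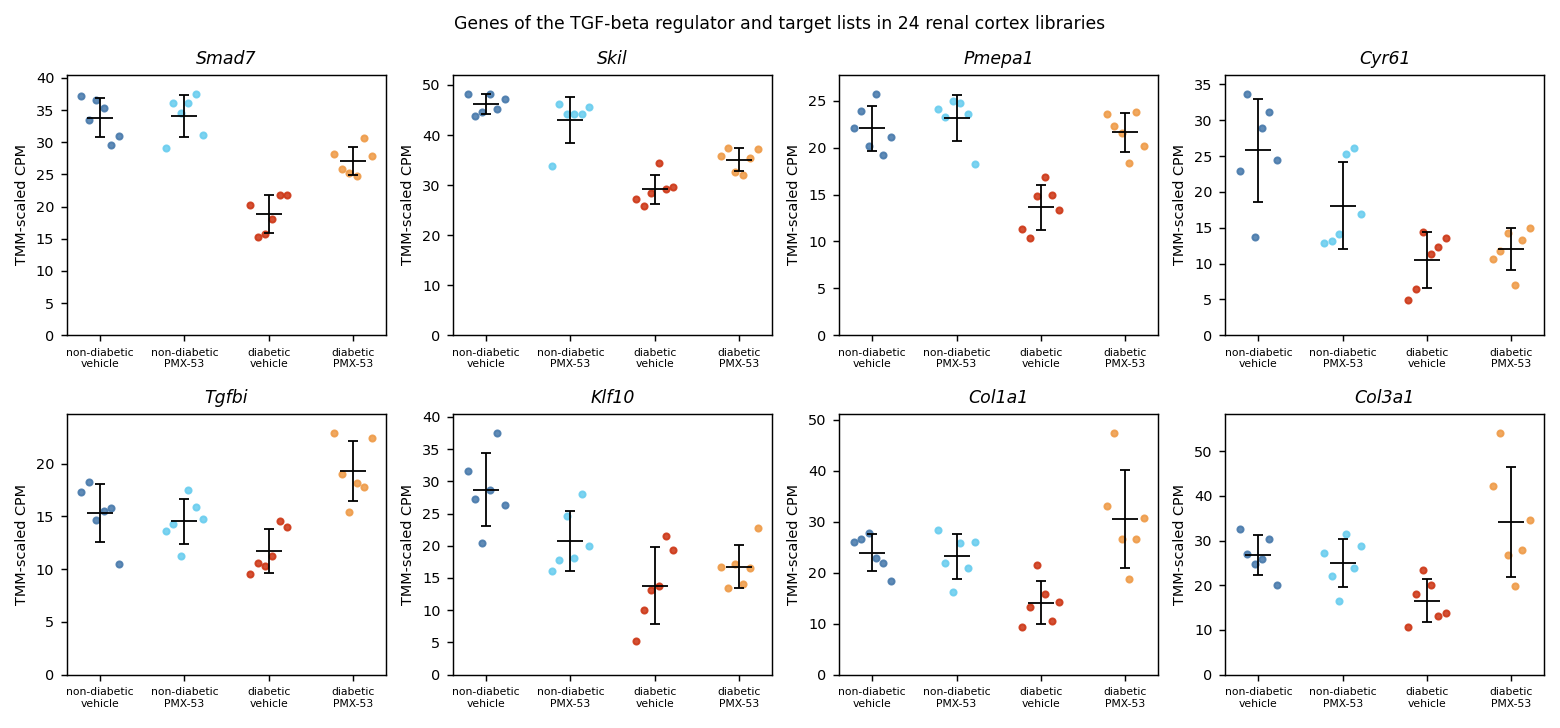
Level of 8 genes of the regulator and target lists in the 24 libraries, in TMM-scaled CPM on linear axes from 0; points are libraries and black bars the mean with 1 SD of 6. Smad7, Skil and Pmepa1 are lowest in the diabetic vehicle group, while Cyr61 and Klf10 have lower means than non-diabetic vehicle in the other 3 groups.

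Of 11 tested matrix metalloproteinases, 1 rose, Mmp2, and 2 fell with diabetes on vehicle (median -0.29). The collagenase Mmp13 went from 1.93 ± 0.509 to 0.252 ± 0.257 CPM and fell by 2.99 ± 0.37 (log2 ± SE, adjusted p = 5.80e-07, edgeR). Mmp12, a macrophage elastase, fell by 1.27 ± 0.27, while the gelatinase Mmp9 was at -0.99 ± 0.41 (adjusted p = 0.0574) and Mmp17 at 0.38 ± 0.18 (adjusted p = 0.0952). In diabetic mice given PMX-53, 4 rose and 0 fell: Mmp13 by 2.39 ± 0.40, Mmp15 by 0.95 ± 0.19, Mmp12 by 0.90 ± 0.28 and Mmp11 by 0.65 ± 0.18. Mmp13 and Mmp12 thus went down with diabetes on vehicle where Mmp2 went up. Mmp11, Mmp12, Mmp13 and Mmp15 each averaged under 4 CPM in every group. With diabetes under PMX-53, Mmp2 was the 1 gene of the list that rose and 0 fell. Mmp13 was at -0.68 ± 0.28 (adjusted p = 0.134), Mmp12 at -0.47 ± 0.25 (0.243), Mmp9 at -0.97 ± 0.34 (0.0718) and Mmp17 at 0.30 ± 0.18 (0.327).

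Of 5 tested inhibitors of matrix proteases, 1 rose and 2 fell with diabetes on vehicle (median 0.08), Timp3 being 1 of those that fell. Serpine2, a serpin that blocks urokinase and thrombin, rose by 1.09 ± 0.14 (log2 ± SE, adjusted p = 1.42e-06, edgeR), from 7.21 ± 1.45 to 15.4 ± 3.40 CPM. Reck, a membrane-bound inhibitor, was at 0.08 ± 0.11 (adjusted p = 0.602). Serpine2 fell by 0.47 ± 0.14 where diabetic mice drank PMX-53 (adjusted p = 0.0118) and remained higher with diabetes under PMX-53, by 0.64 ± 0.15 (adjusted p = 0.00583), where Reck was at 0.28 ± 0.11 (0.126).

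Of 19 other matrix proteases and genes of the plasminogen system, 4 rose and 6 fell with diabetes on vehicle (median -0.07). The 4 that rose were 2 without TMM scaling. Plau, the plasminogen activator urokinase, fell from 509 ± 56.4 to 319 ± 56.9 CPM while its receptor Plaur rose from 2.07 ± 0.390 to 4.02 ± 0.871 CPM. Adamts15, a proteoglycan-cleaving protease, fell by 0.89 ± 0.12, and Bmp1, which trims procollagens, rose by 0.61 ± 0.11 (log2 ± SE; adjusted p = 9.01e-05, edgeR). Under treatment of diabetic mice 4 rose and 3 fell, among them Plaur, which fell by 0.87 ± 0.15, Bmp1, which fell by 0.43 ± 0.11, Adamts5, which rose by 0.90 ± 0.18, and Adamts10, which rose by 0.48 ± 0.09. With diabetes under PMX-53, Bmp1 alone of the 19 rose, by 0.38 ± 0.12 (adjusted p = 0.0347), and 0 fell. Plau was at -0.22 ± 0.12 (0.247), Plaur at 0.0043 ± 0.16 (0.992) and Adamts15 at -0.22 ± 0.12 (0.258). Against untreated non-diabetic mice, a comparison that also differs in PMX-53, 0 rose and 4 fell. Among those 4 were Plau, by 0.61 ± 0.12 (adjusted p = 7.16e-04, edgeR), and Adamts15, by 0.43 ± 0.12 (0.0120). Plaur was at 0.08 ± 0.17 (0.786) and Bmp1 at 0.18 ± 0.12 (0.309) in that comparison. In non-diabetic mice the PMX-53 value of Plau was -0.39 ± 0.11 (0.394).

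Of 21 tested genes for fibronectin, its receptors and matrix glycoproteins, 2 rose and 1 fell with diabetes on vehicle (median -0.02). Lox, which cross-links collagen, rose by 0.99 ± 0.27 (log2 ± SE, adjusted p = 0.00502, edgeR), the integrin subunit Itgb3 rose by 0.60 ± 0.22, and Fbln5, an elastic fibre protein, fell by 0.39 ± 0.14. Itga8, an integrin subunit of mesangial cells, was at -0.25 ± 0.11 (adjusted p = 0.0859). With the drug in diabetic mice, 6 rose and 1 fell, including the proteoglycan genes Dcn, up by 0.67 ± 0.17, Lum, up by 0.85 ± 0.28, and Sdc4, up by 0.19 ± 0.05, and Fbln5, up by 0.50 ± 0.14. The 6 that rose were 10 without TMM scaling, 3 without diabetic PMX-53 replicate 2 and 3 without diabetic vehicle replicate 2. With diabetes under PMX-53, Fn1 and Dcn rose and 0 fell. Lox was at 0.45 ± 0.28 (adjusted p = 0.338), Itgb3 at -0.07 ± 0.22 (0.882), Fbln5 at 0.05 ± 0.14 (0.880) and Itga8 at -0.03 ± 0.11 (0.893).

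Of 13 tested intermediate filament and myofibroblast genes, 4 rose and 3 fell with diabetes on vehicle (median -0.10), and Vim was among the others. Cdh2, which encodes N-cadherin, fell by 1.19 ± 0.19 (log2 ± SE, adjusted p = 1.50e-05, edgeR) and Pdgfrb, the receptor of pericytes and mesangial cells, fell by 0.83 ± 0.15. The epithelial keratins Krt18 and Krt7 rose by 1.34 ± 0.32 and 0.51 ± 0.12. In diabetic mice given PMX-53, 2 rose and 0 fell, Pdgfrb by 0.71 ± 0.15 and Pdgfra, the fibroblast receptor, by 0.35 ± 0.09. Fap was at -0.65 ± 0.27 (adjusted p = 0.0817) and Krt19 at -1.30 ± 0.57 (adjusted p = 0.0939). Cdh2 alone of the 13 fell with diabetes under PMX-53, by 0.98 ± 0.19 (adjusted p = 0.00126), and 0 rose. Pdgfrb was at -0.12 ± 0.15 (0.668), Krt18 at 0.55 ± 0.31 (0.300) and Krt7 at 0.35 ± 0.12 (0.0561). Against untreated non-diabetic mice, a comparison that also differs in PMX-53, 1 rose and 1 fell. Krt7 rose by 0.45 ± 0.12 (adjusted p = 0.00991, edgeR) and Cdh2 fell by 1.04 ± 0.19 (4.63e-04). Krt18 was at 0.89 ± 0.33 (0.0721) and Pdgfrb at -0.11 ± 0.15 (0.662) in that comparison.

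**Figure D5:**
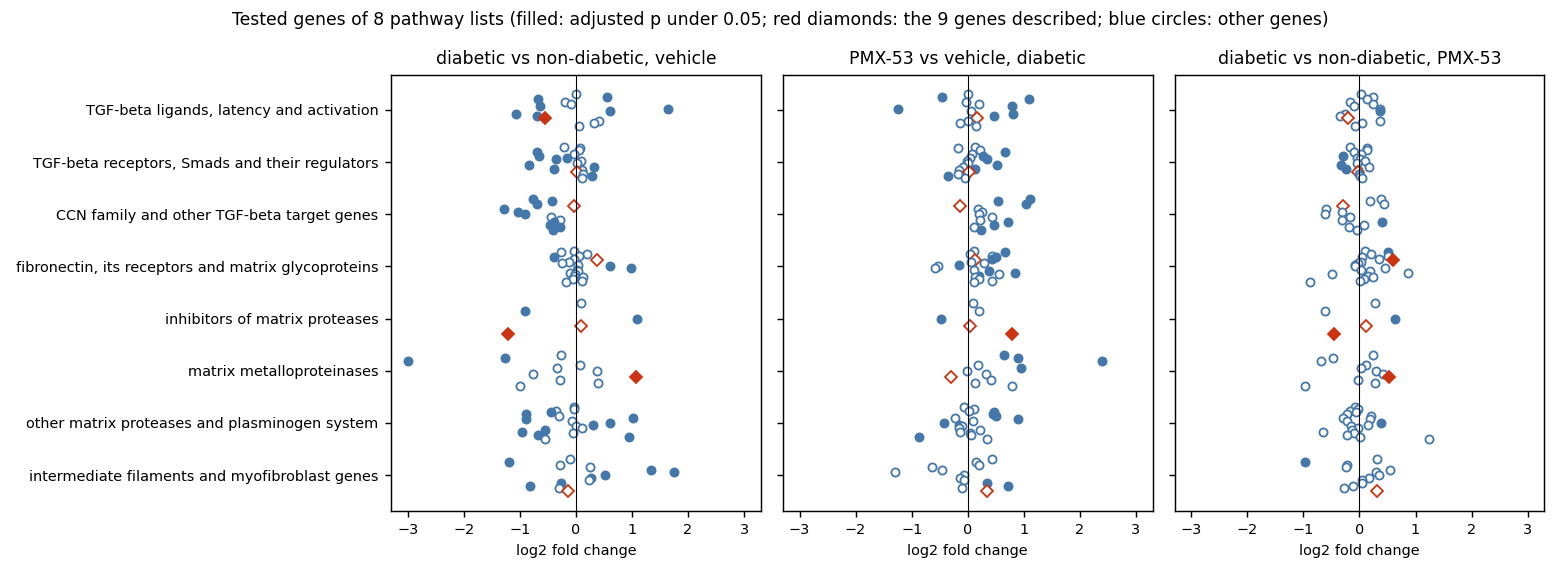
Log2 fold changes of the tested genes of 8 pathway lists in 3 comparisons; filled symbols passed an adjusted p of 0.05 (edgeR), red diamonds are the genes described one by one and blue circles the other genes. In the target list, 10 of 13 genes are filled on the left of 0 for diabetes on vehicle and 6 are filled on the right for PMX-53 in diabetic mice.

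Markers of cell types moved beside these groups. The 8 interstitial fibroblast markers, a list that shares Dcn, Lum, Col1a1, Col3a1 and Pdgfra with the lists above, summed to 235 to 365 CPM in non-diabetic vehicle, 223 to 272 in diabetic vehicle and 265 to 417 in diabetic PMX-53 cortex. For diabetes on vehicle 1 of its 7 tested genes rose and 4 fell, and 6 rose and 0 fell with PMX-53 in diabetic mice. The 7 podocyte markers summed to 220 to 263 CPM in non-diabetic vehicle and 251 to 326 in non-diabetic PMX-53 cortex. Their sums were 222 to 257 in diabetic vehicle and 285 to 413 in diabetic PMX-53 cortex. With diabetes on vehicle 0 of 7 rose and 0 fell, and 6 of 7 rose with PMX-53 in diabetic mice. Against untreated non-diabetic mice, 6 of 7 were higher in diabetic PMX-53 mice. The 9 endothelial markers summed to 386 to 464 CPM in non-diabetic vehicle, 357 to 406 in diabetic vehicle and 393 to 476 in diabetic PMX-53 cortex, with 1 higher and 4 lower of 9 for diabetes on vehicle.

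The 9 markers of parietal epithelium and injured tubule summed to 391 to 551 CPM in non-diabetic vehicle, 703 to 2749 in diabetic vehicle and 684 to 957 in diabetic PMX-53 cortex. For diabetes on vehicle 6 of them rose and 0 fell, and 0 rose and 7 fell with PMX-53 in diabetic mice. The 9 proximal tubule markers summed to 14370 to 16704 CPM in non-diabetic vehicle, 10525 to 12794 in diabetic vehicle and 11957 to 15726 in diabetic PMX-53 cortex. The 7 markers of medulla and papilla, which the cut of the cortex could bring in, summed to 268 to 479.9, 352 to 641 and 226 to 351 CPM in the same groups. Macrophage markers summed to 67.2 to 102, 66.4 to 85.5 and 55.6 to 96.0 CPM. The 8 markers of distal nephron and collecting duct summed to 2962 to 3756, 2820 to 4029 and 2705 to 3588 CPM in these groups, and with diabetes on vehicle 6 of the 8 rose and 1 fell. The 8 markers of mesangial cells, pericytes and smooth muscle summed to 96.5 to 169.5, 102 to 158 and 123 to 193 CPM, and of the 7 tested 2 rose and 1 fell with diabetes on vehicle, while 2 rose and 0 fell with PMX-53 in diabetic mice. The 9 lymphocyte markers summed to 2.55 to 4.56, 1.58 to 2.68 and 3.01 to 6.10 CPM, and of the 4 tested 0 rose and 1 fell, then 2 rose and 0 fell, in the same comparisons. In each of these lists 0 markers were at 0 in all libraries. The part of cell makeup in the results of the members was not tested.

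Genes most like each member were ranked by Spearman's rho of log2 CPM over the 24 libraries, which share depth and group, so these are descriptions. For Timp3 they were Spns3 and Car3 (rho 0.95 each) and Acy3 (0.95); after the group means were taken out the values were 0.66, 0.76 and 0.82. For Mmp2 they were Slc25a12 (0.90), Ugt1a10 (0.89) and Abca7 (0.88), with 0.47, 0.70 and 0.48 within groups. For Tgfb1 they were Cx3cl1 (0.87), Ackr3 (0.87) and Mgp (0.85), with 0.81, 0.66 and 0.80 within groups. For Fn1 the nearest were Pgm1 (0.88), Ddit4l (0.78) and Samm50 (0.77), with 0.70, 0.57 and 0.42 within groups. For Vim they were Ptrf (0.81), Col3a1 (0.74) and Col1a2 (0.73), so that 2 of its 3 nearest genes were collagens of the target list. Members with little difference between groups had lower values over the 24 libraries: Csnk1g2 was nearest to Tgfbr2 (0.79), Irf2 to Ctgf (0.77) and Rhoj to Timp2 (0.74). Within groups this order did not hold, with 0.80 for Csnk1g2, 0.83 for Irf2 and 0.72 for Rhoj.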

How the data were processed

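RNA of renal cortex (200 ng of total RNA, depleted of ribosomal RNA, directional libraries, per the labels' protocols) was sequenced by the authors. Base calls were made with bcl2fastq 2.20.0.422 and reads were aligned with STAR to GRCm38, as the submitters' processing notes list them. Which STAR version, which annotation, how reads were assigned to genes and whether strand was used is not given in the sources used here. The deposited values are raw counts per gene, whole numbers with no normalization.

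From these counts, genes were filtered with filterByExpr over the 4 groups, scaled by TMM and fitted with edgeR 4.0.16 (robust quasi-likelihood F test, 1 coefficient per group, all 24 libraries) in R 4.3.3, with Benjamini-Hochberg adjustment over the 15808 genes tested and a threshold of 0.05. The SE is the fold change divided by the root of F. The interaction is the PMX-53 effect in diabetic mice minus that in non-diabetic mice. CPM in the text is TMM-scaled. Alternatives used DESeq2 1.42.0, limma 3.58.1 (voom with quality weights), other scalings and filters, library sizes without ribosomal RNA and mitochondrial genes, a replicate block, and fits without each library. The fit was tested on simulated data.

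The members and gene lists were chosen with earlier results of these data known. All 9 members are named, and from each list up to 4 other genes with the smallest p in the comparison described; genes carried on to a further comparison, and the genes plotted, are taken from those. A listed gene is not reported here. No pair of libraries was identical, and of 60 pairs within groups the lowest chi-square per degree of freedom was 5.50. Replicate numbers of the labels are not said to mark a shared litter or day. Across the 36 pairs of libraries with the same number in different groups, deviations from group means correlated at -0.12 to 0.13, so the numbers were not taken to pair them. Gene positions and exon lengths are from GENCODE M21 (GRCm38), promoters from RefSeq (GRCm38.p6).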

Additional observations from a re-analysis of the deposited data

Results flagged for a closer look

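Timp3 differed between diabetic and non-diabetic mice in its PMX-53 effect: the test of the difference itself gave 0.76 on the log2 scale (SE 0.19, adjusted p = 0.0130, edgeR), with PMX-53 effects of 0.78 in diabetic and 0.02 in non-diabetic mice. This test uses the diabetic vehicle libraries, so PMX-53 and whatever separates those libraries from the others cannot be told apart.

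In 2 of 36 groups of 6 libraries, 1 library lay apart from the other 5 by a gap above the 95% critical value of Dixon's test; chance alone gives about 1 in 20 groups. Timp2 was at 19.7 CPM in non-diabetic vehicle replicate 6, below the next library at 25.1 CPM. Vim was at 17.4 CPM in diabetic vehicle replicate 6, above the next at 14.2 CPM.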

How the results depend on the processing

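Of 1096 values of the 8 tested members under the alternatives, 1055 kept their direction and side of the threshold, 31 lost a call, 10 gained one, 0 called values reversed and 21 uncalled values changed sign. Timp3, Mmp2 and Tgfb1 for diabetes on vehicle, Timp3 for PMX-53 in diabetic mice, Timp3 for the interaction and Fn1 for diabetes under PMX-53 kept their calls in every alternative run for them. The count of members called for PMX-53 in diabetic mice, 1, became 2 without scaling beyond library totals, 2 in a fit of only the groups compared and 2 with limma voom, and was 1 to 2 without single libraries. Against untreated non-diabetic mice the 4 calls became 2 without a filter on low counts and were 1 to 4 without single libraries; under PMX-53 the 3 calls were 1 to 3. The cause was not tested.

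With the replicate block, 6221 genes in place of 6363 were called for diabetes on vehicle and 4136 in place of 4317 for PMX-53 in diabetic mice; among the members it ended the call of Fn1 against untreated non-diabetic mice (0.50, adjusted p = 0.0621, edgeR) and changed no other call, and 0 of 24 libraries correlated best with their own replicate number. Under the block 3 genes of the target list in place of 5 had an interaction.

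Without TMM scaling, the share of called genes that were higher was 31.2% in place of 50.7% for diabetes on vehicle, 79.5% in place of 50.7% for PMX-53 in diabetic mice, 65.7% in place of 54.9% for diabetes under PMX-53, 79.3% in place of 49.5% for the interaction and 64.7% in place of 53.4% against untreated non-diabetic mice; the median of all genes moved to 0.12 for PMX-53 in diabetic mice. For diabetes under PMX-53 edgeR called 1587 genes and 871 without TMM scaling, and limma voom called 2560; against untreated non-diabetic mice these were 2363 and 1492 for edgeR. Depth limits Timp1, with 0 to 16 counts in a library, and Mmp2, with 24 to 109.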
